A study of Rattus norvegicus with 46 samples.

Results

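Striatal projection neurons are the spiny output cells of the caudate and putamen, and the genes described here are 7 that are widely used to mark them. They were chosen by gene ID from a list of known marker genes, which names Drd1, Drd2, Adora2a, Ppp1r1b, Penk, Tac1 and Pdyn. The deposited count table holds 30452 rat gene IDs without symbols, so each name rests on the list that pairs it with its ID and could not be checked in the files. Of the 7 listed genes, 6 have an ID in the table, 5 have counts above 0 and the same 5 could be tested. The ID listed for Tac1 (ENSRNOG00000007374) is not analysed here. The ID listed for Penk (ENSRNOG00000008943) had 0 counts in all 46 libraries, 0 of 859017414 counts in all, which allows a level of up to 0.00349 CPM (read counts relative to the library total). That limit covers counting error only and holds for the listed ID, not for the gene: Penk is known to be abundant in striatum, and whether its reads were counted under another ID was not tested.

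RNA was measured by polyA RNA sequencing in brain tissue of male Wistar rats that were 3 months old and weighed 320 to 350 g. Ischemic stroke was modelled by MCAO (middle cerebral artery occlusion), which blocks the artery that supplies much of the striatum and lateral cortex, and lesion tissue was taken on day 14. The ketogenic diet gave 6431 kcal/kg, 84% of it as fat, 11% as protein and 5% as carbohydrate. The standard diet gave 3227 kcal/kg, 11% of it as fat, 24% as protein and 65% as carbohydrate. The assigned diet was given for 2 months before MCAO and for 2 weeks after it, and the same schedule was given to the intact groups. There were 19 libraries of ketogenic lesions, 11 of standard-diet lesions, 8 of intact ketogenic brain and 8 of intact standard-diet brain. The labels give the tissue as brain and do not say which region was dissected or whether each library came from its own rat, so p-values measure the spread between these samples. In bulk tissue, fewer cells of a type and less RNA per cell cannot be told apart.

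Striatal projection neurons fall into a direct and an indirect pathway. Direct-pathway cells carry the dopamine receptor D1 (Drd1) and the peptide precursors Tac1 (substance P) and Pdyn (dynorphin). Indirect-pathway cells carry the dopamine receptor D2 (Drd2), the adenosine receptor Adora2a and the enkephalin precursor Penk. Ppp1r1b encodes DARPP-32, a phosphatase inhibitor that is regulated by dopamine and adenosine through cyclic AMP and is found in cells of both pathways. None of these genes is confined to the striatum: Drd1 and Ppp1r1b are also transcribed in cortex, Pdyn in hippocampus and hypothalamus, Drd2 in dopamine neurons, and Adora2a in immune and vascular cells.

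Library totals were 15290782 to 30601841 counts in ketogenic lesions, 17068206 to 22664327 in standard-diet lesions, 12911844 to 20420918 in intact ketogenic brain and 8883068 to 18868791 in intact standard-diet brain. The 20 most abundant genes took 12.5% ± 1.0 of the counts in ketogenic lesions (SD, n = 19), 12.7% ± 0.80 in standard-diet lesions (n = 11), 18.5% ± 3.4 in intact ketogenic brain (n = 8) and 24.5% ± 4.5 in intact standard-diet brain (n = 8). This share was lower in lesions than in intact brain on both diets, and lower on the ketogenic diet in intact brain, while in lesions the diets differed by less than 1 SD. Its part in the results below was not tested except where a fit with it as a covariate is given. Levels are given as CPM after TMM scaling, a correction for differences in library make-up. They are not per length, so they compare libraries for 1 gene and not genes with each other.

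The intact libraries showed how evenly these genes were sampled in undamaged tissue. Ppp1r1b (ENSRNOG00000028404) had the smallest spread in both intact groups, counting error included. Its level ran over 206, 239 and 262 CPM (lowest, median and highest) in intact ketogenic brain and over 174, 222 and 259 CPM in intact standard-diet brain, a highest-to-lowest ratio of 1.27 and 1.49. Its spread in log2 CPM was 0.14 (SD, n = 8) in intact ketogenic brain, against 0.025 from counting alone, and 0.19 in intact standard-diet brain, against 0.027 from counting alone. Each intact library held at least 1959 counts of Ppp1r1b, and the spread of each intact group was larger than counting error, although single libraries lay close together. The variation beyond counting, estimated as edgeR's biological coefficient of variation, was not smallest for Ppp1r1b. It was 0.129 against 0.0099 for Drd2 in intact standard-diet brain, and 0.0857 against 0.0850 for Drd1 in intact ketogenic brain.

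Drd1 (ENSRNOG00000023688) had 4.75, 5.89 and 7.61 CPM (lowest, median and highest) in intact ketogenic brain and 3.96, 5.35 and 13.6 CPM in intact standard-diet brain. The highest value belonged to 1 standard-diet library, number 84, and the next was 6.31 CPM. In that library Ppp1r1b, at 187 CPM, was the second lowest of its group and Drd2, at 2.39 CPM, was the fourth lowest of 8. The excess of Drd1 there was therefore not shared by the other genes.

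Drd2 (ENSRNOG00000008428) had 2.24, 2.62 and 3.97 CPM (lowest, median and highest) in intact ketogenic brain and 1.82, 2.42 and 2.87 CPM in intact standard-diet brain, from 19 to 51 counts a library. Its spread in log2 CPM of 0.24 in intact standard-diet brain was no larger than the 0.25 given by counting alone, so differences in Drd2 between those libraries were not detectable at this depth. Adora2a (ENSRNOG00000001302) had 5.38, 5.44 and 8.95 CPM in intact ketogenic brain and 3.29, 5.11 and 7.02 CPM in intact standard-diet brain. Its highest value came from ketogenic library 45, which was also the highest of its group in Drd1 and the lowest in Drd2. Pdyn (ENSRNOG00000026036) had 13.5, 18.3 and 31.1 CPM in intact ketogenic brain and 16.4, 18.5 and 30.3 CPM in intact standard-diet brain. The high Pdyn libraries were numbers 53, 57 and 59 in the ketogenic group and number 88 in the standard-diet group.

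**Figure D1:**
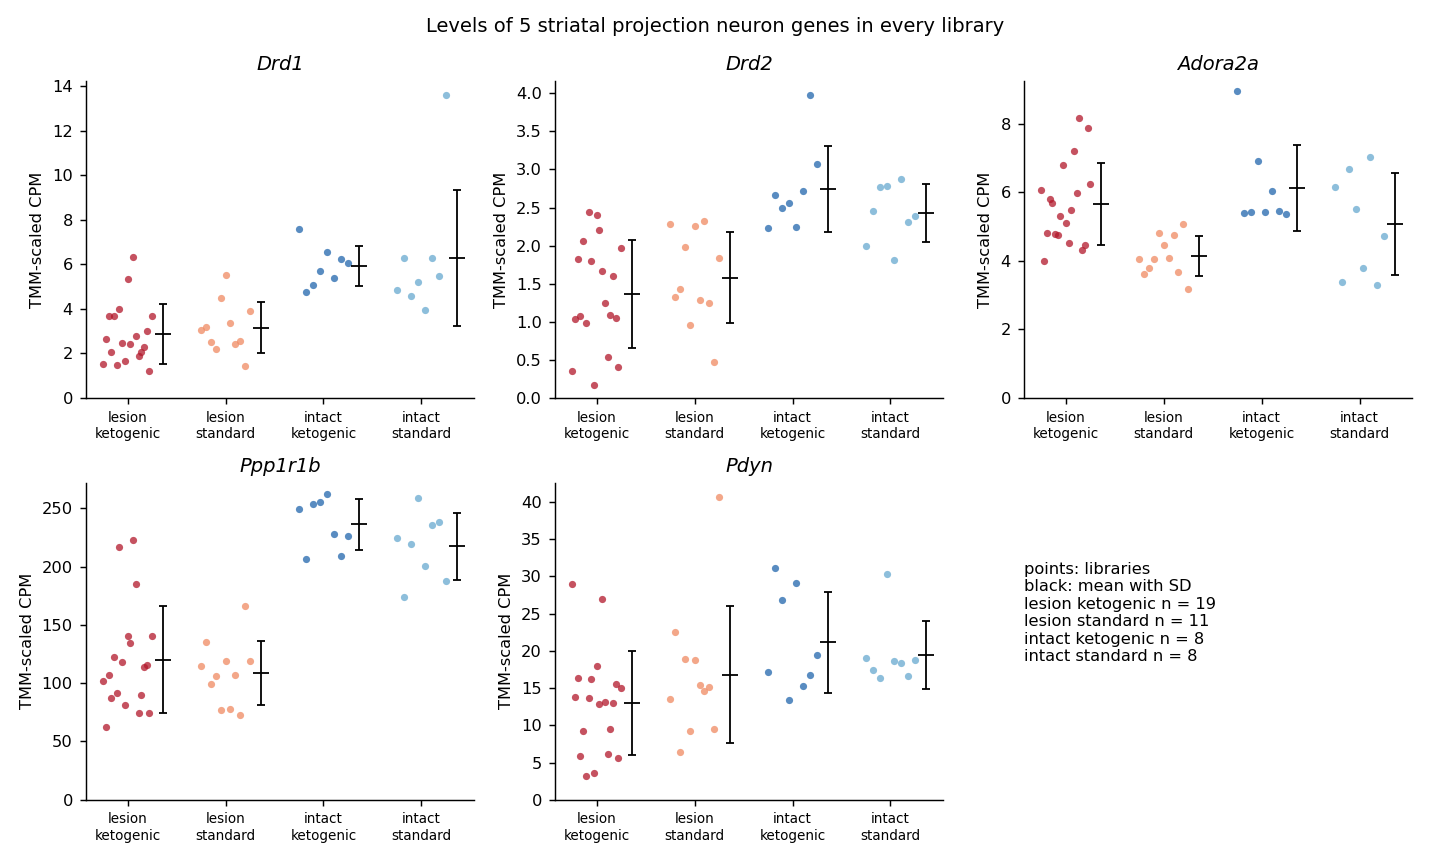
Level of each gene in every library, in TMM-scaled CPM on a linear axis from 0, by group (19, 11, 8 and 8 libraries). Points are libraries and black bars the mean with SD. All 11 Ppp1r1b values of standard-diet lesions lie below all 8 of intact standard-diet brain, and the highest Drd1 value, 13.6 CPM, is a single intact standard-diet library.

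Windows around the annotated start could be shown for Drd1, Drd2 and Pdyn, 3 of the 5 genes with values. They come from the RefSeq table of build GRCr8, which is not the build of the counts (mRatBN7.2). They are set side by side because these receptor and peptide genes are followed together through the lesion below. Each runs from 250 bases before to 50 bases after the annotated start, 5′ to 3′ on the gene's own strand, and capitals mark the motif matches described next. Drd1 is at chr17:10546354-10546653 on the plus strand, Drd2 at chr8:58605153-58605452 on the plus strand and Pdyn at chr3:137366454-137366753 on the minus strand.
Drd1: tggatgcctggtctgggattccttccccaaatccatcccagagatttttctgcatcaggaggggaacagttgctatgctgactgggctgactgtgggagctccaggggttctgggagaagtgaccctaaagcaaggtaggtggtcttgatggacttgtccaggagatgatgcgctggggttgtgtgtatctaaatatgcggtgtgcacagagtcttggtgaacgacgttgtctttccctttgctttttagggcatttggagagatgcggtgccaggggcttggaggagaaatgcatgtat
Drd2: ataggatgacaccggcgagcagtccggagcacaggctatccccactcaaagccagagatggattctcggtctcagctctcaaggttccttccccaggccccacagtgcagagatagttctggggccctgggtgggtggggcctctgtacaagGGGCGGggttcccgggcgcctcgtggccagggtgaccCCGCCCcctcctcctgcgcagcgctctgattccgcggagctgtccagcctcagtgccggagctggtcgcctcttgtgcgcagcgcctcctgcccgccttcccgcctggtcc
Pdyn: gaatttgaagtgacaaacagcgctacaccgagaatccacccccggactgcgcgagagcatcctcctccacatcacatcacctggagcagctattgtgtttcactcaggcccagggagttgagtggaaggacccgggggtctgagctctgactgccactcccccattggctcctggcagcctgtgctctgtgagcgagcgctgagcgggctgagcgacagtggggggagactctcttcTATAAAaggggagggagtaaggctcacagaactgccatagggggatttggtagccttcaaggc
The 3 windows differ in base composition, with a GC content of 51.7% for Drd1, 67.3% for Drd2 and 58.3% for Pdyn. Each was searched on both strands for a TATA box (TATAAA), a GC box (GGGCGG), a cyclic AMP response element (TGACGTCA) and an AP-1 element (TGANTCA). The Drd2 window held 2 GC boxes, 1 on each strand, starting at -98 and -61 from the start, a motif present in 33.1% of 33469 promoter windows of the same length. The Pdyn window held 1 TATA box, starting at -13, a motif present in 14.2% of those windows. None of the 4 motifs was found in the Drd1 window. Neither the cyclic AMP element (1.83% of windows) nor the AP-1 element (7.33%) was found in any of the 3. Whether transcripts begin at these annotated starts was not tested, so a window need not hold the promoter of its gene. For Drd1 the absence of motifs is therefore no statement about its promoter. No motif matched overlapped another.

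To ask whether the intact samples could be ordered by how much striatum they held, the log2 CPM of the 5 genes were correlated in pairs within each group. In intact ketogenic brain Pearson's r ran from -0.75 to 0.60 over the 10 pairs, with a median of -0.22, and 7 pairs were negative. In intact standard-diet brain r ran from -0.40 to 0.49, with a median of 0.23, and 3 pairs were negative. None of the 10 pairs passed in either intact group in exact permutation tests after Benjamini-Hochberg adjustment over the 10. The most extreme pair was Drd2 with Ppp1r1b in intact ketogenic brain (r = -0.75, Spearman's rho = -0.69, exact two-sided permutation p = 0.0223 for r, adjusted p = 0.223, n = 8). No common order of the intact libraries over the 5 genes was therefore detected, though 8 libraries a group leave moderate correlations undetectable.

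The genes with the highest r with the mean of the 5 over the 16 intact libraries were ENSRNOG00000029811 and ENSRNOG00000014152, at 0.79 for both. Each library's value was taken relative to its diet group. Both genes were picked as the highest of 14643, and whether their r exceeds chance was not tested. They averaged 18.0 and 122.6 CPM over all libraries, and the files do not pair these IDs with names. The 5 genes correlated with their own mean, of which each is a part, at r = 0.35 for Drd2 to 0.59 for Adora2a, which placed them between rank 105 and rank 1623.

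In ketogenic lesions Drd1, Drd2, Ppp1r1b and Pdyn fell, and in standard-diet lesions Drd1, Drd2 and Ppp1r1b fell. Drd1 and Ppp1r1b stood at close to 0.5 of the intact level on both diets. Adora2a, the third receptor of the set, did not pass on either diet. The 2 MCAO comparisons have no library in common, but each shares a group with both diet comparisons given further on. They were fitted with edgeR's quasi-likelihood test. Calls were made where p, adjusted by Benjamini-Hochberg across every tested gene, was under 0.05.

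In ketogenic lesions, 4 of the 5 genes were called, all lower, beside 69.1% of 15862 genes called in either direction and 33.9% called lower. In standard-diet lesions, 3 of the 5 were called, all lower, beside 68.4% of 15446 genes called and 34.1% called lower. The share called at all was thus near that of all genes, since most genes differed between lesion and intact brain. All calls were in 1 direction, and the median log2 fold change of the 5 genes was -0.98 on the ketogenic diet and -0.61 on the standard diet, beside -0.003 and -0.006 over all genes tested.

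Drd1, the D1 receptor, had 1.21, 2.45 and 6.35 CPM (lowest, median and highest) in ketogenic lesions, against 4.75, 5.89 and 7.61 CPM in intact ketogenic brain. In 17 of the 19 ketogenic lesions it was below every intact library. Its log2 fold change was -1.04 (SE 0.22, adjusted p = 0.000161), and 5.98% of all genes had a lower one. In the standard-diet groups it had 1.4, 3.06 and 5.51 CPM in lesions, against 3.96, 5.35 and 13.6 CPM in intact brain, and 9 of 11 lesions were below every intact library. The fitted change there was -0.99 in log2 (SE 0.24, adjusted p = 0.00115). Without intact library 84, which carries the 13.6 CPM, it was -0.73 (adjusted p = 0.00405).

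Drd2, the D2 receptor, had 0.176, 1.25 and 2.44 CPM in ketogenic lesions, against 2.24, 2.62 and 3.97 CPM in intact ketogenic brain. As for Drd1, 17 of 19 lesions were below every intact library. The fitted change was -1.0 in log2 (SE 0.29, adjusted p = 0.00415). The lowest lesion library, number 39, held only 3 Drd2 counts. Drd2 had 0.474, 1.43 and 2.33 CPM in standard-diet lesions, against 1.82, 2.42 and 2.87 CPM in intact standard-diet brain, and 6 of 11 lesions were below every intact library. The log2 fold change of -0.61 (SE 0.23, adjusted p = 0.0217) did not pass when libraries were scaled by their totals alone (-0.27, adjusted p = 0.300) or when all 46 libraries were fitted together (-0.62, adjusted p = 0.0660).

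Ppp1r1b, the DARPP-32 gene, had 62.2, 114 and 223 CPM in ketogenic lesions, against 206, 239 and 262 CPM in intact ketogenic brain. The ranges overlapped through 2 lesion libraries, numbers 27 and 31, and the other 17 were below every intact library. Its log2 fold change was -0.98 (SE 0.18, adjusted p = 2.39e-05). It had 72.6, 107 and 166 CPM in standard-diet lesions, against 174, 222 and 259 CPM in intact standard-diet brain. The ranges did not overlap, as was so for 22.1% of all genes in that comparison and for 14.1% in the ketogenic one. The fitted change was -1.0 in log2 (SE 0.13, adjusted p = 1.76e-06). Of the 5 genes it had the most counts, 1197 to 6571 a library, and the smallest SE relative to its change on both diets.

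Pdyn, the dynorphin precursor, had 3.24, 13.1 and 28.9 CPM in ketogenic lesions, against 13.5, 18.3 and 31.1 CPM in intact ketogenic brain, and 10 of 19 lesions were below every intact library. Its log2 fold change was -0.71 (SE 0.29, adjusted p = 0.0319). The call was lost without intact ketogenic library 53, 57 or 59 (adjusted p = 0.0719, 0.0635 and 0.0812 in that order), which are the 3 with the highest Pdyn, and with scaling by library totals (-0.46, adjusted p = 0.158). On the standard diet Pdyn had 6.48, 15.2 and 40.7 CPM in lesions, against 16.4, 18.5 and 30.3 CPM in intact brain. In 7 of 11 lesions it was below every intact library and in 1, number 65, above all of them. Its fitted change of -0.21 in log2 (SE 0.25, adjusted p = 0.474) did not pass, and with scaling by library totals the value was 0.14 (adjusted p = 0.644).

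Adora2a, the adenosine receptor, had 4.0, 5.47 and 8.16 CPM in ketogenic lesions, against 5.38, 5.44 and 8.95 CPM in intact ketogenic brain, so the medians were level. Of the 19 ketogenic lesions, 9 were below every intact library and none was above them all. Its log2 fold change was -0.11 (SE 0.13, adjusted p = 0.449, 95% interval -0.37 to 0.15). In the standard-diet groups it had 3.19, 4.07 and 5.07 CPM in lesions, against 3.29, 5.11 and 7.02 CPM in intact brain, and all 11 lesions were below the intact median. The fitted change was -0.29 in log2 (SE 0.15, adjusted p = 0.0966, 95% interval -0.61 to 0.03). With library totals alone both values changed sign, to 0.15 (adjusted p = 0.300) on the ketogenic and 0.07 (adjusted p = 0.690) on the standard diet. The standard-diet value passed with limma voom (-0.34, adjusted p = 0.0362) and without intact library 85 or 90 (adjusted p = 0.0381 and 0.0380).

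Scaling by library totals alone moved the median of all genes to 0.25 on the ketogenic and 0.34 on the standard diet, a shift common to every gene. The called genes were then 69.1% higher on the ketogenic diet, in place of 51.0%, and 76.6% higher on the standard diet, in place of 50.1%. Under it Drd1 (-0.80 on the ketogenic and -0.65 on the standard diet) and Ppp1r1b (-0.74 and -0.66) were still called, and Drd2 was called on the ketogenic diet (-0.75).

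**Figure D2:**
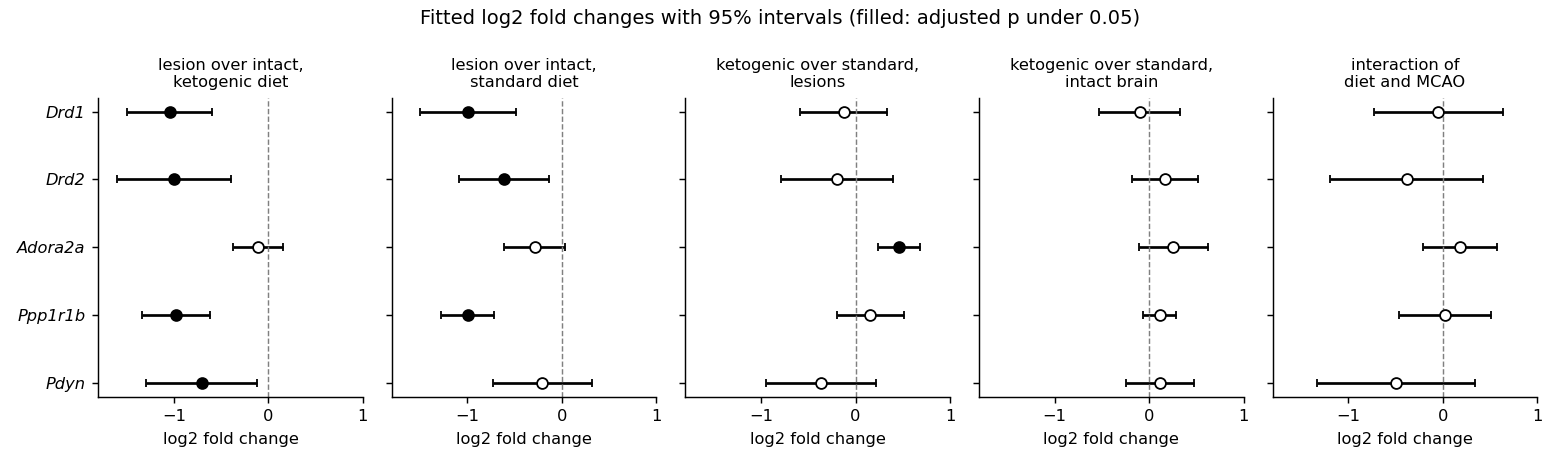
Fitted log2 fold change of each gene in 5 contrasts, with 95% intervals. Filled points passed at an adjusted p under 0.05. Drd1, Drd2 and Ppp1r1b are filled in both MCAO panels, Pdyn in the ketogenic one, and Adora2a in the diet contrast of lesions.

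Whether Adora2a changed less than the other genes was tested on the ratio of counts within each library, which does not depend on how libraries are scaled. These 16 tests, 4 ratios in 4 comparisons, were added after the values had been seen, and their adjustment does not cover the choice of Adora2a. They use the same counts as the calls above, so they are not separate evidence. On the standard diet the fitted change of Pdyn, -0.21, was smaller than that of Adora2a, -0.29. The log2 ratio of Adora2a to Ppp1r1b averaged -4.34 ± 0.62 in ketogenic lesions (SD, n = 19) and -5.28 ± 0.24 in intact ketogenic brain (n = 8). That is 0.94 higher in lesions (exact two-sided permutation p = 0.000453, adjusted p = 0.00363 over 16), and 16 of 19 lesions were above every intact library. On the standard diet the ratio averaged -4.68 ± 0.39 in lesions (n = 11) and -5.46 ± 0.39 in intact brain (n = 8), a difference of 0.78 (exact p = 0.00045, adjusted p = 0.00363), with 9 of 11 lesions above every intact library.

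Against Drd1, the Adora2a ratio was 1.04 higher on the log2 scale in ketogenic lesions than in intact ketogenic brain (exact permutation p = 0.00128, adjusted p = 0.00683), in 16 of 19 lesions above every intact library. On the standard diet the difference was 0.72 (exact permutation p = 0.0264, adjusted p = 0.0704) and did not pass, though it did without intact library 89 or lesion 65 or 70 (adjusted p = 0.0434, 0.0490 and 0.0484 in that order). Against Drd2, which belongs to the same pathway as Adora2a, the ratio was 1.11 higher in ketogenic lesions (exact permutation p = 0.0136, adjusted p = 0.0542) and 0.47 higher in standard-diet lesions (exact permutation p = 0.125, adjusted p = 0.182). Neither passed, although the ketogenic value passed with 2 instead of 0.5 added to each count (1.05, adjusted p = 0.0460) and without intact library 45 or lesion 3, 19, 21, 25, 31 or 43 (adjusted p = 0.0360 to 0.0482). Against Pdyn the differences were 0.74 (adjusted p = 0.118) in ketogenic and 0.10 (adjusted p = 0.772) in standard-diet lesions by the same exact permutation test.

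The receptors of the 2 pathways were compared by the ratio of Drd1 to Drd2 counts. As neither gene is confined to the striatum and the region dissected is not given, this ratio need not measure the pathways. Its log2 value averaged 1.18 ± 0.68 in ketogenic lesions (SD, n = 19), 1.02 ± 0.63 in standard-diet lesions (n = 11), 1.11 ± 0.37 in intact ketogenic brain (n = 8) and 1.27 ± 0.53 in intact standard-diet brain (n = 8). Lesions minus intact brain was 0.07 on the ketogenic diet (exact two-sided permutation p = 0.798) and -0.25 on the standard diet (exact permutation p = 0.374). Ketogenic minus standard diet was 0.16 in lesions (permutation p = 0.538) and -0.16 in intact brain (exact permutation p = 0.530). Adjusted over these 4 tests, p was 0.718 to 0.798. When each library was left out, the standard-diet difference ran from -0.37 (without lesion 82) to -0.08 (without intact library 84), and the diet difference in lesions from 0.05 (without ketogenic lesion 39) to 0.27 (without standard-diet lesion 82). With all libraries, each difference was smaller than the SD within any of the groups, and Drd2 had only 3 to 56 counts a library.

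**Figure D3:**
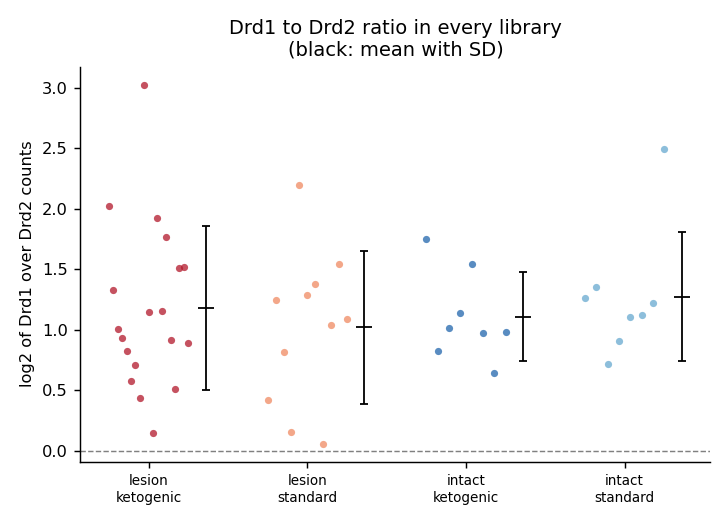
Log2 ratio of Drd1 to Drd2 counts in every library, by group, with 0.5 added to each count. Points are libraries and black bars the mean with SD. The 4 means lie between 1.02 and 1.27, and the widest range is that of ketogenic lesions, from 0.15 to 3.03.

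In ketogenic lesions the spread of each gene in log2 CPM was larger than in intact ketogenic brain. It was 0.64 against 0.22 for Drd1, 0.51 against 0.14 for Ppp1r1b and 0.29 against 0.26 for Adora2a (SD, not tested). Over all genes the median biological coefficient of variation was also larger, at 0.255 against 0.159. Of the 10 pairs of genes, 5 were correlated in the 19 ketogenic lesions, all of them among Drd1, Drd2, Ppp1r1b and Pdyn. These were permutation tests with 100000 resamples, adjusted over the 10 pairs. The share of all other gene pairs correlated in these libraries was not computed, so whether this is particular to these genes was not tested. Drd1 and Drd2 had r = 0.74 and rho = 0.79 (permutation p = 0.00024, adjusted p = 0.0024 for r), and r was 0.77 without the 2 libraries farthest from the median of Drd1. In striatum these 2 genes mark different projection neurons. Neither is confined to striatum, so the cells behind this correlation are not known. Drd1 and Ppp1r1b had r = 0.72 and rho = 0.75 (adjusted permutation p = 0.00285 for r). The others were Drd1 with Pdyn (r = 0.63, rho = 0.62), Drd2 with Ppp1r1b (r = 0.61, rho = 0.77) and Ppp1r1b with Pdyn (r = 0.55, rho = 0.52), with adjusted permutation p of 0.0123, 0.0123 and 0.0301 for r in that order. Without the 2 farthest libraries these 4 pairs had r of 0.49 to 0.68. The remaining pair of these 4 genes, Drd2 with Pdyn, did not pass (r = 0.48, rho = 0.38, adjusted permutation p = 0.0621 for r and 0.187 for rho).

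With TMM scaling Adora2a was in none of the 5 pairs, and its r with the other genes in ketogenic lesions was negative, from -0.47 with Drd2 to -0.10 with Ppp1r1b. In the 11 standard-diet lesions no pair passed, with r from -0.58 for Adora2a with Pdyn to 0.47 for Drd1 with Drd2. That the groups differ in this was not tested. All values of a library share its depth and scaling factor, and with library-total CPM 6 pairs passed in ketogenic lesions. The sixth was Drd2 with Adora2a (r = -0.53, rho = -0.42, adjusted permutation p = 0.0392 for r and 0.106 for rho), so that the absence of Adora2a from the pairs that passed depends on the scaling.

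**Figure D4:**
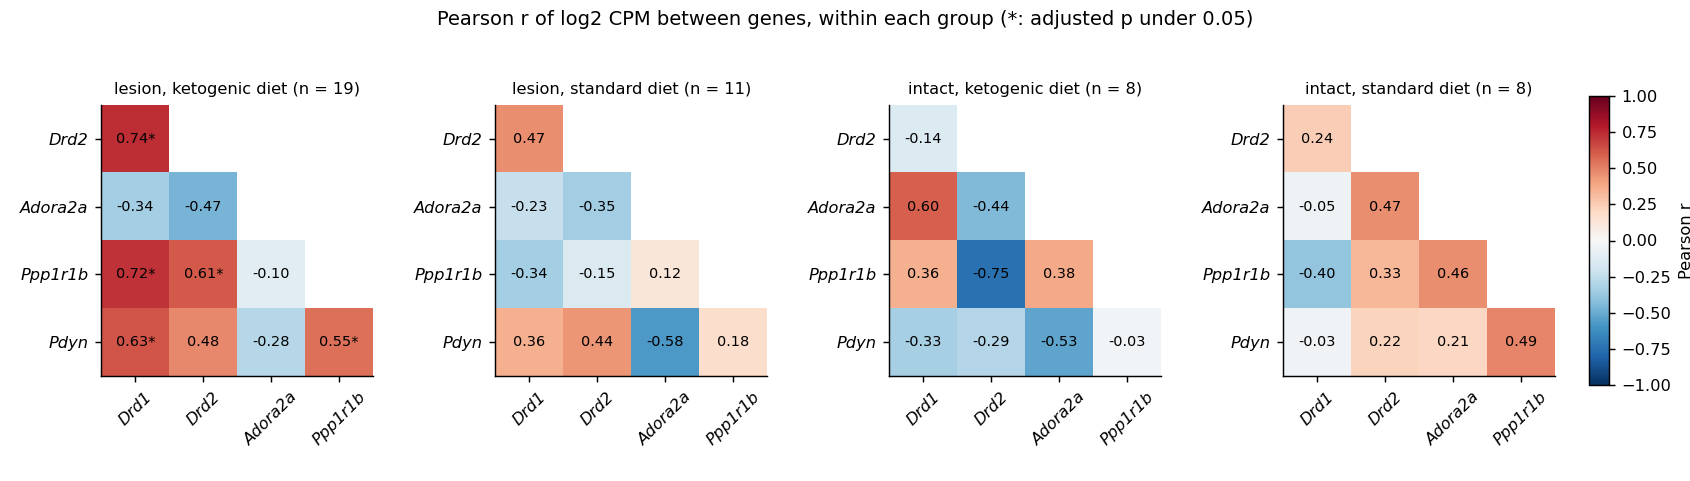
Pearson's r of log2 CPM (TMM-scaled) between genes over the libraries of each group, from -1 (blue) to 1 (red). Asterisks mark adjusted permutation p under 0.05, of which there are 5, all in ketogenic lesions and none with Adora2a.

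The lesion libraries also differed in how far their whole profile lay from intact brain. This was expressed as an axis position, with 0 for the mean of intact brain and 1 for the mean of lesions, computed from all genes but the listed ones and defined after the data had been seen. Each gene was weighted by its mean log2 difference between lesions and intact brain. Genes lower in lesions can therefore fall along the axis by construction, and the share of all genes that did so was not computed. Positions were 1.01 ± 0.35 in ketogenic lesions (SD, n = 19, from 0.286 to 1.40) and 0.99 ± 0.25 in standard-diet lesions (n = 11, from 0.472 to 1.30). In ketogenic lesions, libraries farther from intact brain had less Ppp1r1b (r = -0.93, rho = -0.90) and less Drd1 (r = -0.86, rho = -0.86). For both, the permutation p of r was 1e-05, the smallest that 100000 resamples can give, and the adjusted p was 5e-05 over 10 tests.

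Drd2 (r = -0.70, rho = -0.81, adjusted permutation p = 0.00383 for r) and Pdyn (r = -0.58, rho = -0.56, adjusted permutation p = 0.0229) followed in the same direction. Without the 2 libraries farthest from the median position, r was -0.88 for Ppp1r1b, -0.80 for Drd1, -0.72 for Drd2 and -0.52 for Pdyn. The ketogenic lesions nearest to intact brain, numbers 27 and 31, at 0.286 and 0.423, had 223 and 217 CPM of Ppp1r1b, and the farthest, number 39, at 1.40, had 81.3 CPM. Adora2a did not pass (r = 0.20, rho = 0.27, adjusted permutation p = 0.522). As genes lower in lesions can fall along the axis by construction, these values do not separate Adora2a from the others beyond its fold change.

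In the 11 standard-diet lesions no gene passed for r. Drd1 had r = -0.61 (permutation p = 0.0498, adjusted p = 0.0996) and rho = -0.69 (adjusted permutation p = 0.0436). Ppp1r1b had r = -0.29 (adjusted permutation p = 0.522), which turned to 0.10 without the 2 farthest libraries. Pdyn had r = -0.53 (adjusted permutation p = 0.158). The difference between the diets in these relations was not tested.

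**Figure D5:**
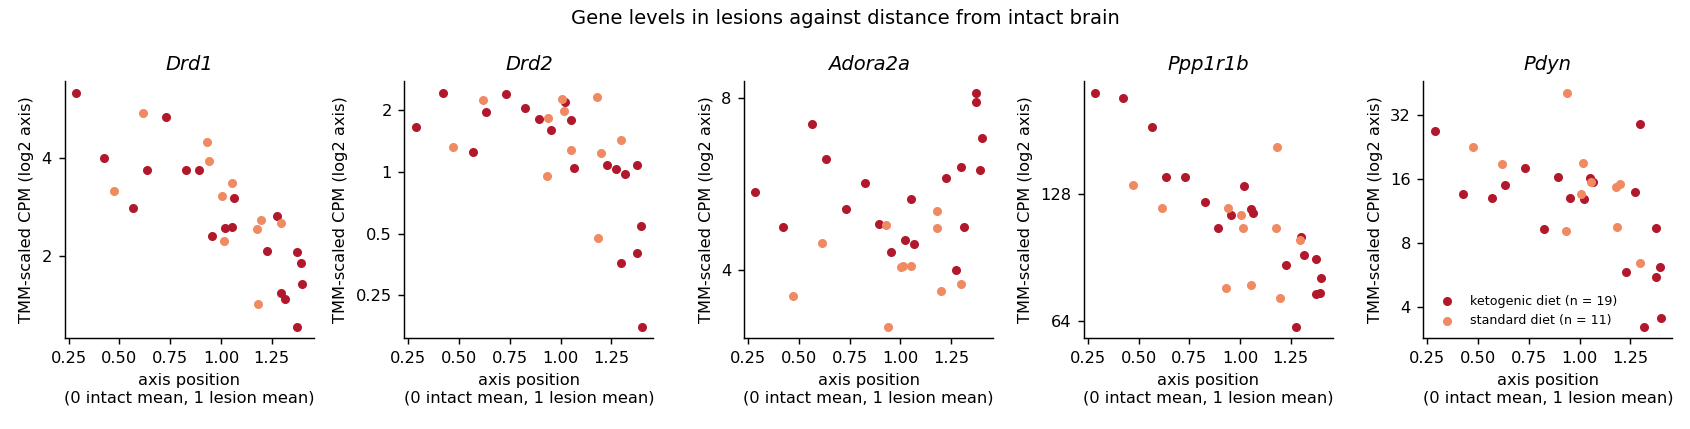
Level of each gene in the 30 lesion libraries, in TMM-scaled CPM on a log2 axis, against the axis position of the library. Ppp1r1b and Drd1 run downward with distance from intact brain in ketogenic lesions (r = -0.93 and -0.86). Adora2a, which was not called lower in these lesions, does not. Genes lower in lesions can fall along this axis by construction.

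In lesions, 1 of the 5 genes differed by diet. Adora2a was higher in ketogenic than in standard-diet lesions, and it was the only member called, beside 0.741% of 15782 genes called and 0.463% called higher. It had 4.0, 5.47 and 8.16 CPM (lowest, median and highest) in ketogenic lesions, against 3.19, 4.07 and 5.07 CPM in standard-diet lesions. Of the 19 ketogenic lesions, 12 were above every standard-diet lesion and 18 were above the standard-diet median. The log2 fold change was 0.46 (SE 0.11, 95% interval 0.24 to 0.68, edgeR adjusted p = 0.0396), a 1.37-fold higher level, and 97.8% of genes had a lower log2 fold change.

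The size of that difference was steady, but its call was not. The log2 fold change was 0.42 to 0.49 when each of the 30 libraries was left out in turn, with an adjusted p of 0.0196 to 0.0793, and 17 of the 30 omissions put it over 0.05 (0.0509 to 0.0793). Those were ketogenic lesions 13, 15, 19, 21, 29, 31, 39 and 41 and standard-diet lesions 61, 64, 65, 66, 67, 70, 71, 78 and 82. The other settings gave an adjusted p of 0.00312 (DESeq2) to 0.0629 (no low-count filter). DESeq2 called 502 of 15782 genes, and the fit with no low-count filter called 21 of 22528. With the axis position as a covariate, added after the data had been seen, the log2 fold change was 0.46 (edgeR adjusted p = 0.00778). That fit called 1719 of 15782 genes, against 117 in the main fit. The unadjusted edgeR p of Adora2a hardly moved, at 0.00015 with the covariate and 0.00019 without it. As a ratio to the other genes within a library, Adora2a was higher in ketogenic lesions by 0.62 against Drd1, 0.78 against Drd2, 0.33 against Ppp1r1b and 0.86 against Pdyn on the log2 scale, with adjusted permutation p of 0.0736, 0.115, 0.182 and 0.0704 in that order, and none passed. The ratio to Drd1 passed without lesion 69 or 27 (adjusted permutation p = 0.0348 and 0.0473), and that to Pdyn without lesion 67, 11 or 27 (0.0441, 0.0463 and 0.0450).

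The other 4 genes did not pass for diet in lesions. The log2 fold change, ketogenic over standard, was -0.13 for Drd1 (95% interval -0.59 to 0.33), -0.19 for Drd2 (-0.79 to 0.40), 0.16 for Ppp1r1b (-0.20 to 0.52) and -0.37 for Pdyn (-0.95 to 0.22). A rise of the size seen for Adora2a, 0.46, lies inside the interval of Ppp1r1b and above the upper limits of Drd1, Drd2 and Pdyn.

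In intact brain none of the 5 genes was called for diet, beside 0% of 14746 genes by edgeR. At an unadjusted p under 0.05 there were 2181 genes, 14.8%, and 0 of the 5. DESeq2 called 274 genes and none of the 5. Adora2a averaged 6.12 ± 1.26 CPM in intact ketogenic brain and 5.06 ± 1.49 CPM in intact standard-diet brain (SD, n = 8 each), and all 8 ketogenic libraries were above the standard-diet median. Its log2 fold change was 0.26 (SE 0.17, 95% interval -0.10 to 0.62, adjusted p = 0.501). With the top-20 share of counts as a covariate, a fit added after the data had been seen, it was 0.46 (95% interval -0.02 to 0.93, adjusted p = 0.911).

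Drd1 averaged 5.92 ± 0.91 CPM in intact ketogenic brain and 6.29 ± 3.07 CPM in intact standard-diet brain (log2 fold change -0.10, or 0.17 without standard-diet library 84). Drd2 averaged 2.75 ± 0.56 and 2.42 ± 0.38 CPM in the same order (log2 fold change 0.17). Ppp1r1b averaged 236 ± 21.8 CPM in intact ketogenic brain and 217 ± 28.4 CPM in intact standard-diet brain (0.11). Pdyn averaged 21.1 ± 6.81 CPM in intact ketogenic brain and 19.5 ± 4.51 CPM in intact standard-diet brain (0.11).

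The interaction of diet and MCAO asks whether the lesion changed these genes by a different amount on the 2 diets. None of the 5 was called, beside 0% of 16140 genes by edgeR, with 719 genes at an unadjusted p under 0.05, 2 called by DESeq2 and 13 by limma voom. The difference, ketogenic minus standard, in log2 fold change was -0.05 for Drd1 (95% interval -0.73 to 0.64), -0.38 for Drd2 (-1.19 to 0.43), 0.18 for Adora2a (-0.21 to 0.57), 0.03 for Ppp1r1b (-0.46 to 0.52) and -0.49 for Pdyn (-1.33 to 0.34). So Pdyn passed on the ketogenic diet and not on the standard diet without a detectable difference between the diets, and the Adora2a difference between diets in lesions was not shown to differ from that in intact brain. In 1 fit over all 46 libraries with tissue and diet as separate terms, added after the data had been seen, the diet term of Adora2a was 0.38 (SE 0.094, adjusted p = 0.0128), beside 4.74% of 16140 genes called and 2.81% called higher, and none of the other 4 genes passed.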

How the data were processed

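PolyA RNA of 46 brain samples was extracted with a column kit and sequenced from directional libraries, per the labels' protocols. Tools named in the submitters' processing notes are HISAT2 2.0.5 and HTSeq 0.7.2, with DESeq2 1.42.0, MultiQC 1.15, FastQC 0.11.8, bcl2fastq 2.20 and Cufflinks, on build mRatBN7.2. Neither the strand setting nor the annotation release was given in the sources used here; overlapping and antisense genes could thus share reads. The authors deposited raw counts per gene ID, with no normalization, and 0 cells differed between the series table and the sample files. The table also held 39 columns of other samples, which were not used. Of the gene IDs, 24.9% had 0 counts in every library.

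Samples were grouped by tissue and diet from the labels. No libraries of a group agreed within sampling noise (smallest chi-square per degree of freedom 12.2). Tests were run with edgeR 4.0.16 under R 4.3.3 (robust quasi-likelihood test after filterByExpr and TMM scaling), each contrast on its own 2 groups and the interaction on all 46 libraries, with Benjamini-Hochberg adjustment over all genes tested and a threshold of 0.05. Alternatives were DESeq2 1.42.0, RLE scaling, library totals alone, no low-count filter, a mean of at least 1 CPM, limma 3.58.1 voom with quality weights, 1 fit over all libraries and leaving out each library. Log2 CPM had a prior count of 2 in the axis position and in the search for the most alike genes. Spreads and correlations used log2 CPM without a prior count, and ratios of counts had 0.5 added. Differences and correlations of 1 value per library were tested by two-sided permutation, exact with a group under 10 libraries and with 100000 resamples otherwise. The counting spread is the Poisson error at the observed counts. The scripts were tested on simulated data.

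The genes and marker lists were chosen with earlier results of these data known. All listed genes are named, with at most 2 IDs of the genes most like them. As 0 IDs matched the RefSeq table (GRCr8), the lists of other cell type markers and of partner genes in these pathways were not tested, nor were scaling by neuronal genes and the planned ratio of Tac1 to Penk. The windows around annotated starts are from RefSeq, by symbol.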

Additional observations from a re-analysis of the deposited data

Results flagged for a closer look

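In groups of 8 libraries, a library was singled out when its gap to the nearest other one was over 0.526 of the whole range (Dixon's test at 95%). Of 12 groups of values tested this way, 4 had such a library. The rule's chance rate of 1 in 20 holds for independent values with a normal distribution. CPM on a linear scale need not have one, and library 84 was singled out by both Drd1 and the ratio that includes it. Whether 4 of 12 is more than chance gives was therefore not tested. In intact standard-diet brain, library 84 had 13.6 CPM of Drd1, and the next had 6.31 CPM. The same library had the highest log2 ratio of Drd1 to Drd2, 2.49, and the next was 1.35. In the same group, library 88 had 30.3 CPM of Pdyn, and the next had 19.0 CPM. In intact ketogenic brain, library 45 had 8.95 CPM of Adora2a, and the next had 6.91 CPM. In each case the other genes of that library were not beyond the same limit, apart from the ratio that includes Drd1.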

How the results depend on the processing

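The number of the 5 genes called was 2 to 4 for MCAO on the standard diet and 3 to 4 on the ketogenic diet over all settings, and 0 for diet in intact brain and for the interaction. For diet in lesions it was 1, but 0 with no low-count filter and 0 in 1 fit over all libraries, and 0 to 1 when each library was left out; the cause was not tested. Signs turned with library totals alone for Adora2a (0.152 in the ketogenic and 0.0691 in the standard-diet groups) and Pdyn (0.137, standard diet) in the MCAO comparisons and for Ppp1r1b in the interaction (-0.0814), where the whole distribution shifts with the scaling. Drd1 for diet in intact brain turned to 0.0249 with limma voom and ran from -0.177 to 0.167 when each library was left out, the highest without standard-diet library 84. Leaving out each library, the log2 ratio of Drd1 to Drd2 ran from -0.0350 to 0.159 for MCAO on the ketogenic diet and from -0.255 to 0.0101 for diet in intact brain. The ratio of Adora2a to Pdyn for MCAO on the standard diet ran from -0.00983 to 0.280. Of the genes called, Drd1 and Ppp1r1b for MCAO on both diets and Drd2 on the ketogenic diet stayed called in all settings run. The share of calls in lesions that were higher on the ketogenic diet was 62.4%, but 75.2% with RLE scaling and 33.3% with library totals alone, and the number of all genes called was 117, from 21 with no low-count filter to 1719 with the axis position as a covariate. For diet in intact brain it was 0, and up to 274 with DESeq2. No paired analysis was possible because the sample numbers in the labels are not shared between groups. Leaving out libraries was not run for the interaction, and scaling by neuronal genes was not run. Depth limits Drd2 most, at 3 to 56 counts a library.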
